A study of Drosophila melanogaster with 4 samples.

Results

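The proximal 2 Mb of the left arms of chromosomes 2 and 3 in the fruit fly were examined as consecutive windows of 1 kb, where the arm sequences meet pericentric heterochromatin. The windows run from 21011545 to 23011544 on 2L and from 22543558 to 24543557 on 3L (FlyBase release 5, counted from 1, with the centromere at the high coordinates). There are 2000 windows on each arm, or 4000 of the 139706 windows of the sequences in the file headers other than Uextra. They were chosen by position, not by signal, though earlier results of these data were known. Chromatin immunoprecipitation and sequencing (ChIP-seq) was done on nuclei of 3rd instar larvae of the wild-type strain Oregon-R (Oregon-R-modENCODE), with the antibody HP1 wa191 against HP1a. The labels give 2 HP1a ChIP libraries and 2 input libraries of the same strain and stage. The inputs enter here only as the background against which the authors called enriched clusters in the ChIP library of the same number. Each ChIP library has a deposited list of clusters, and a further list belongs to the series. Nothing in the labels ties the replicates to separate batches of larvae, so their spread may be technical.

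HP1a is a chromodomain protein that binds histone H3 methylated at lysine 9 and forms much of the protein scaffold of heterochromatin. Pericentric heterochromatin flanks the centromeres, is rich in repeats and transposons, and contains few genes, some of which need the heterochromatic setting for normal expression. When a rearrangement puts a euchromatic gene beside it, silencing can spread into the gene in some cells, which is known as position-effect variegation. The place where HP1a cover ends on an arm therefore marks a border between chromatin types that fly genetics has long studied.

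A single step was placed by least squares in the covered share of the windows, and its position is called the edge here. On both arms the replicates put it in the same window. Such a fit gives 1 place whatever the data hold, and fits of more steps follow below. The edge lay at the window from 22168545 to 22169544 on 2L and at the window from 22992558 to 22993557 on 3L. With only the clusters that reached the median value of their list, the replicates no longer shared a window, and the edge lay 806 and 673 kb from the proximal end on 2L and 1513 and 1472 kb on 3L. In the full lists the covered block proximal of the edge was 843 kb long on 2L and 1551 kb long on 3L. On 2L the block was covered over 86.7% in replicate 1 and 88.3% in replicate 2, and the sequence distal of the edge over 7.92% and 10.1%. On 3L the block was covered over 87.3% and 89.1%, and the distal side over 2.99% and 2.73%. The gap between the sides was many times the difference between the replicates on each arm. The edge was placed by a fit to the same cover, which favours a wide gap, so the gap is given as a description. An exact paired permutation test on 2 libraries has 0.5 as its smallest p, so no test was made here or in the comparisons that follow.

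**Figure D1:**
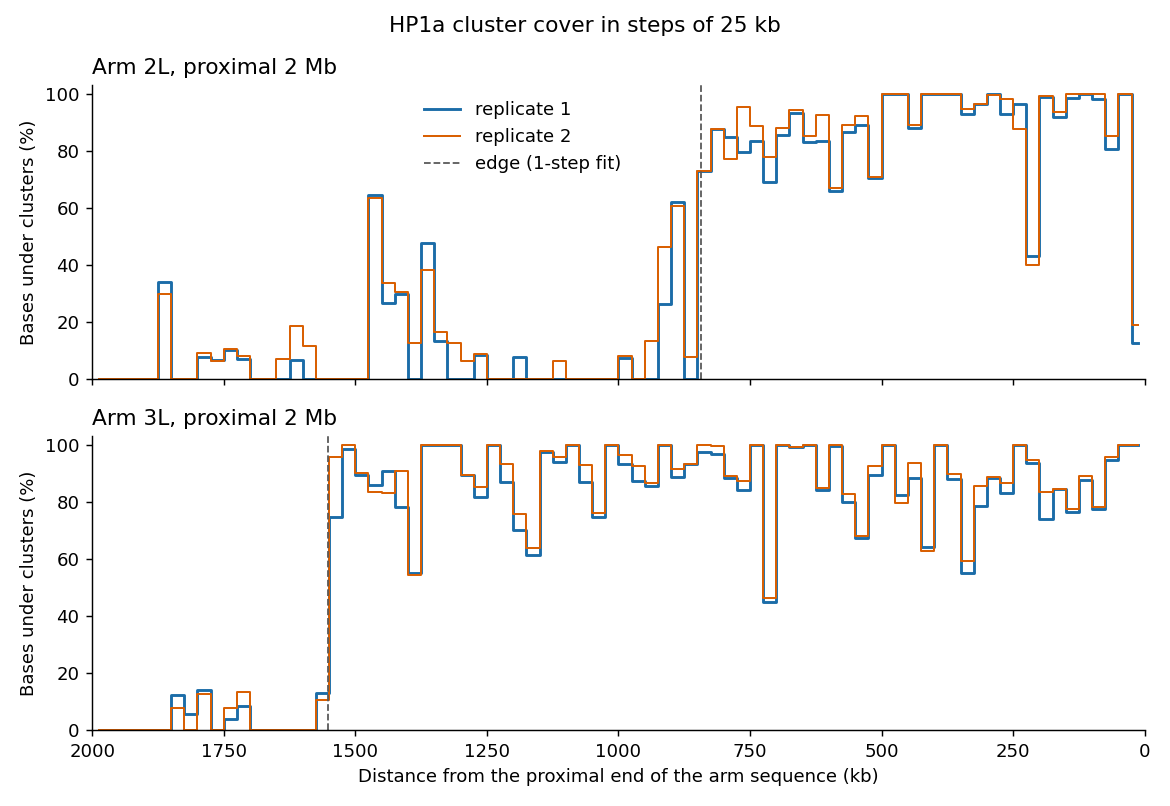
Share of bases under HP1a clusters in steps of 25 kb, against the distance from the proximal end of the arm sequence (kb, proximal end at the right), for 2L above and 3L below. Lines are the 2 replicates and the dashed line is the fitted edge, at 843 kb on 2L and 1551 kb on 3L. Cover is high on the proximal side in both replicates and low on the distal side, and the last step of 2L falls to 12.5% and 18.8%.

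Counted by window, 826 of the 2000 windows of 2L in replicate 1 and 868 in replicate 2 had at least 500 covered bases, which is called covered below. On 3L there were 1368 and 1396. These are 41.3% and 43.4% of the windows of the zone on 2L, against 5.74% and 5.86% of all windows of 2L. On 3L they are 68.4% and 69.8%, against 7.14% and 7.2% of all windows of that arm. Over all sequences but Uextra, 13.7% of windows were called in replicate 1, 14.7% in replicate 2 and 12.8% in both. Most windows were either full or empty. This follows largely from the window size, since every replicate cluster of the zone was at least 1301 bp wide. Part cover could arise only at cluster boundaries. On 2L 751 and 792 were covered over all 1000 bases and 1126 and 1070 held no covered base, which leaves 123 and 138 in between. On 3L 1278 and 1325 were full, 569 and 544 were empty, and 153 and 131 lay in between.

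The name transition zone holds for the position of these windows, and whether a stretch of intermediate cover was found depended on the arm, the list and the fit. When 2 steps were fitted over the whole zone, with segments of at least 20 windows, the middle segment was in both replicates the block without its proximal end. On 2L it was 819 kb long in both replicates, covered over 88.9% and 90.4%, and the remaining 24 kb at the proximal end were covered over 8.82% and 16.2%. On 3L it was 1461 and 1459 kb long, covered over 86.5% and 88.5%, and the last 91 and 92 kb were covered over 98.5% and 98.9%. In the series list the same fit put the middle segment distal of the edge instead. On 2L it was 86 kb long and covered over 51.1%, against 12.5% farther out and 93.1% in the block. On 3L it was 281 kb long and covered over 9.53%, against 0% farther out and 91.9% in the block. A fit limited to 300 kb on either side of the edge, added after the data were seen, placed a middle segment of 82 and 86 kb just distal of the edge on 2L. That stretch was covered over 27.2% in replicate 1 and 37.5% in replicate 2, against 0.83% and 1.67% farther out and 83.1% and 86.5% in the block. On 3L its middle segment lay in the block, and the replicates differed. In replicate 1 it was 174 kb long and covered over 81.4%, a level between the 4.33% outside and the 94.3% farther in. In replicate 2 it was 73 kb long and covered over 98.3%, above both the 4.08% outside and the 86.4% farther in.

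The edge of 2L was abrupt in cover. The block began with a cluster of high enrichment value, but clusters as high lay farther out, so the value made no single step there. The outermost cluster of the block spanned 22168371 to 22202388 in replicate 1 and 22168306 to 22202394 in replicate 2, so its distal boundary differed by 65 bp. Each cluster carries 1 value from the authors, read here as log2 enrichment over input, and that of this cluster was 1.69 and 1.76. The first 3 steps of 10 kb inside the block were covered over 100% in both replicates, whereas the first 10 kb outside were covered over 1.74% and 2.39%. These few covered bases belong to the same cluster, which begins just before the edge window. The next cluster outward ended 34808 bp away in replicate 1 and 21684 bp away in replicate 2.

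The intermediate stretch of 2L held a pair of strong clusters and a scatter of weak ones. The stronger pair was found in both replicates, at 22112235 to 22122810 and 22129071 to 22133562 in replicate 1 and at 22112121 to 22122812 and 22128985 to 22133484 in replicate 2. Their values were 1.63 and 1.72 in replicate 1 and 1.71 and 1.77 in replicate 2, as high as in the outermost cluster of the block. The first of the pair holds the longest stretch distal of the edge that both replicates covered, 10576 bp. The other clusters there had values of 0.68 and 1.00 in replicate 1, and from 0.54 to 0.72 in replicate 2. The longest stretch covered in replicate 2 alone in the zone of 2L, 3611 bp from 22083227 to 22086837, is at the outer end of this region.

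The edge of 3L was sharp in cover and graded in value. The outermost cluster began at 22992110 in replicate 1 and 22992755 in replicate 2, or 645 bp apart, with values of 0.80 and 0.76. The first 10 kb of the block were covered over 84.6% and 92.1%, and the 10 kb outside over 4.48% and 0%. Values at or above 1.5 began 38 kb inside the edge in replicate 1, after 6 clusters of 0.60 to 1.07. In replicate 2 they began 14 kb inside, after 5 clusters of 0.63 to 0.76. In the series list they began 11 kb inside, after 1 cluster of 0.64. The level of 1.5 was not planned, and the distance depends on it. Values of at least 1 began 14.7 and 14.1 kb inside in replicates 1 and 2. The replicates divided the stretch that begins there differently. Replicate 1 had clusters of 1.06 and 1.07, the last of those 6, and then a cluster of 35.2 kb with 2.10. Replicate 2 joined the same stretch into 1 cluster of 59.4 kb with 1.65. A value cannot be placed more finely than the cluster it belongs to. Outside the edge of 3L the nearest cluster was weak and not shared, with a value of 0.48 in replicate 1 (22969189 to 22970961) and 0.55 in replicate 2 (22980218 to 22982094). Beyond these, 135385 bp from 22833804 to 22969188 were uncovered in both replicates, a stretch named after its values were seen.

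**Figure D2:**
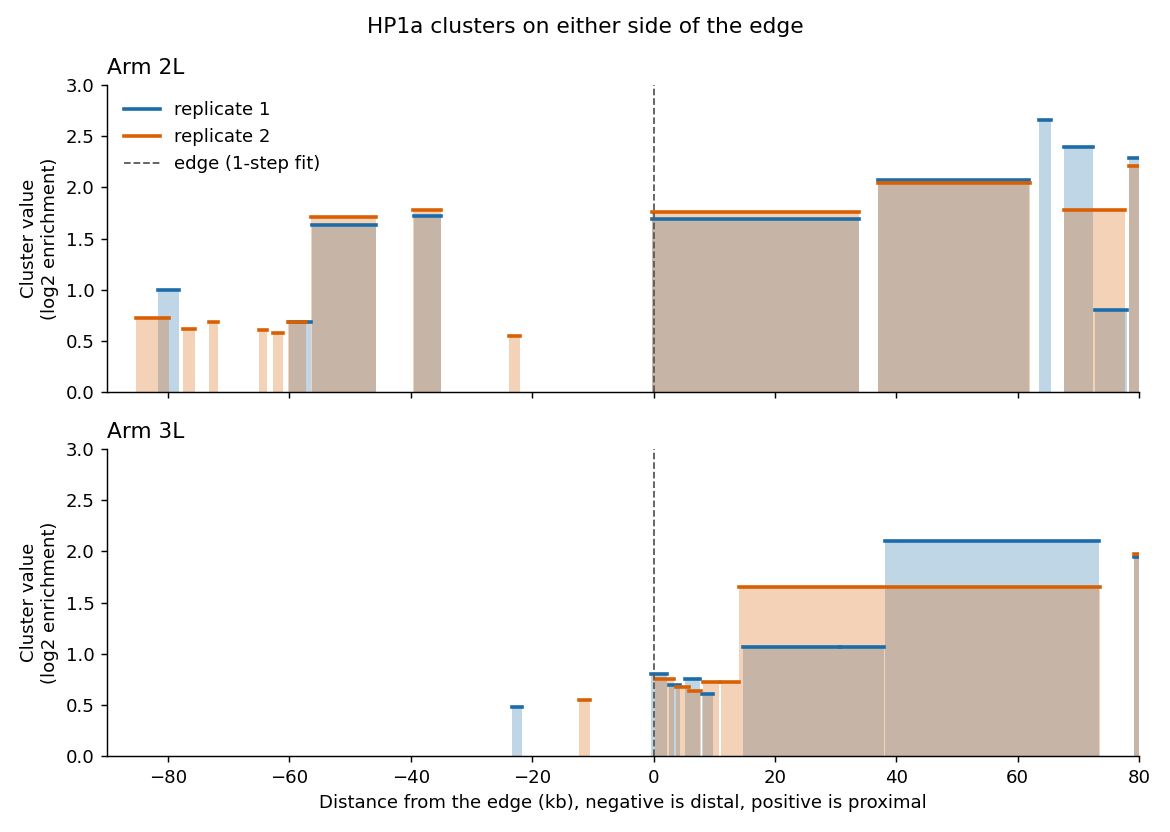
Clusters within 90 kb distal and 80 kb proximal of the edge on 2L (above) and 3L (below), with the distance from the edge in kb on the horizontal axis. The height of each bar is the authors' cluster value (log2 enrichment), blue for replicate 1 and orange for replicate 2, with brown where both overlap. On 2L the first cluster of the block has 1.69 and 1.76, while on 3L the first clusters have 0.80 and 0.76.

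Inside the blocks the arms differed in cover by less than the replicates did, and in value by little, although the block of 3L was the longer. Cover was 87.5% ± 1.2 in the block of 2L and 88.2% ± 1.3 in the block of 3L (SD, n = 2). The difference, 2L minus 3L, was -0.59 percentage points in replicate 1 and -0.77 in replicate 2, less than the 1.67 and 1.85 points by which the replicates differed on 2L and 3L. The median value of called windows was 2.19 and 2.18 on 2L and 2.15 and 2.16 on 3L, on the log2 scale. The difference, 2L minus 3L, was 0.04 and 0.02, both more than the 0.01 by which the replicates differed on each arm. The quartiles were 1.85 and 2.37 on 2L in replicate 1 and 1.95 and 2.30 on 3L. Windows under the same cluster share its value, so windows are not independent.

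The blocks were made of long clusters. The block of 2L held 44 in replicate 1 and 39 in replicate 2, of median widths 8392.5 and 10097 bp, and that of 3L held 78 and 67, of 11884 and 14434 bp. Clusters of at least 20 kb, 14 and 11 on 2L and 23 in each replicate on 3L, held 74.5% and 70.0% of the bases under block clusters on 2L and 67.7% and 73.7% on 3L. No cluster distal of either edge reached that width. The widest of 2L spanned 22576386 to 22662039 in replicate 1, with a value of 2.19, and 22839326 to 22951627 in replicate 2, with 2.02. Replicate 1 covered 97.4% of this replicate 2 cluster. The others among the 3 widest of each replicate on 2L were 22506619 to 22573362 (2.38) and 22886160 to 22936074 (1.74) in replicate 1, and 22576389 to 22661853 (2.23) and 22506622 to 22573591 (2.36) in replicate 2. On 3L the widest spanned 23165588 to 23242323 in replicate 1 (1.83) and 23165707 to 23265871 in replicate 2 (1.91). Next came 24280083 to 24335005 (2.27) and 24136676 to 24190560 (2.22) in replicate 1, and 24271912 to 24334991 (2.30) and 23006677 to 23066102 (1.65) in replicate 2. Each of these 12 clusters was covered over at least 97.4% in the replicate it did not come from.

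Extreme values sat on short clusters. The highest value of the zone on 3L was at the same site in both replicates, 3.78 at 24096332 to 24098588 in replicate 1 and 3.09 at 24096329 to 24098579 in replicate 2. On 2L the highest values were at different sites. Replicate 1 had 2.66 at 22232074 to 22234079, where replicate 2 had no cluster, and replicate 2 had 3.26 at 22380828 to 22385055, where replicate 1 had 2.45. The lowest values all lay distal of the edge. They were 0.42 at 22018246 to 22020061 and 0.39 at 21898511 to 21900075 on 2L, and 0.40 at 22817554 to 22819020 and 0.22 at 22827731 to 22829635 on 3L, in replicates 1 and 2.

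Values were lower in the first 300 kb of each block than in the 100 kb that follow. On 2L the median of called windows was 1.69 in replicate 1 and 1.77 in replicate 2 in the first 100 kb, and 1.85 and 1.84 in the next. It was 2.01 and 2.05 between 200 and 300 kb and 2.38 and 2.36 between 300 and 400 kb. The 43 kb at the proximal end had 2.59 in both. On 3L the first 100 kb had 1.95 and 1.65, the next 1.83 and 2.02 and the one after 1.83 and 1.91. Values then stood at 2.36 and 2.48 between 300 and 400 kb and at 2.42 and 2.48 between 400 and 500 kb. From there to the end of 3L the steps ran from 1.95 to 2.30 in replicate 1 and from 2.01 to 2.30 in replicate 2. On 2L the values did not stay high either, with 1.74 and 2.02 between 700 and 800 kb from the edge. There the replicates differed by more than in any other 100 kb step of that block. A step median can be the value of a single wide cluster. On 3L the 1.83 of both steps from 100 to 300 kb in replicate 1 belongs to 1 cluster of 76.7 kb. The 1.69 of the first 100 kb of 2L belongs to its outermost cluster. Neighbouring steps are thus not independent, and the lower values rest on few clusters.

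**Figure D3:**
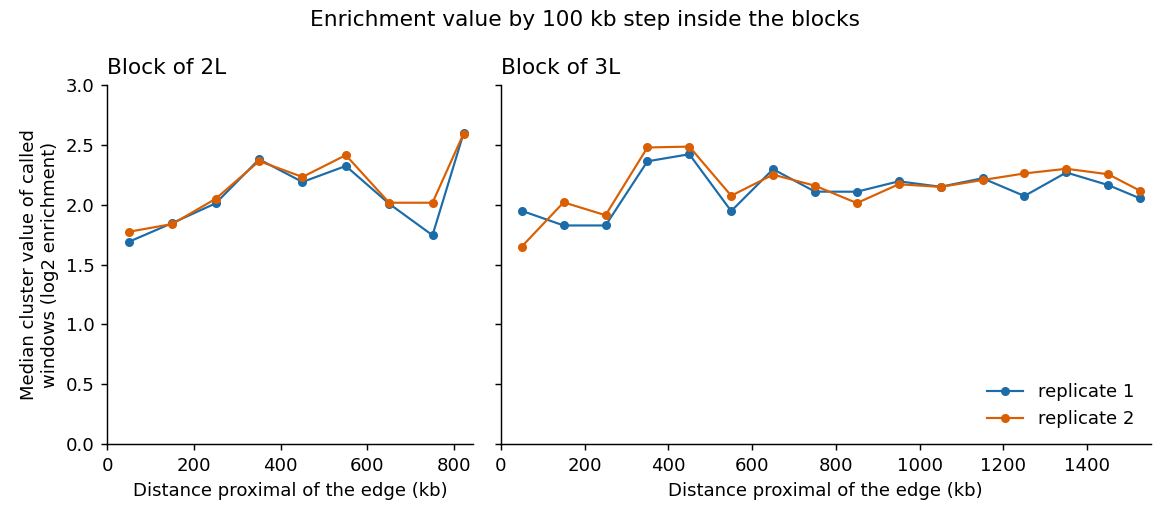
Median cluster value (log2 enrichment) of windows called covered, in steps of 100 kb proximal of the edge, for the block of 2L (left) and of 3L (right). Points are the 2 replicates, and the last step is shorter, 43 kb on 2L and 51 kb on 3L. The step from 300 to 400 kb has 2.38 and 2.36 on 2L and 2.36 and 2.48 on 3L, above the first 3 steps of its arm.

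Neither block was unbroken. On 2L 38 stretches were uncovered in both replicates, 87.5 kb in all, and on 3L 60 stretches, 159 kb in all. They made up 77.8% of the uncovered bases of replicate 1 and 89.0% of those of replicate 2 on 2L, and 80.6% and 94.2% on 3L. Their median length was 1187 bp on 2L and 2236.5 bp on 3L. The few of at least 5 kb, 4 on 2L and 13 on 3L, held 46.4% and 51.4% of the jointly uncovered bases. The longest on 2L was the proximal end itself, 17146 bp from 22994399 to 23011544, followed by 9591 bp from 22409828 to 22419418 and 7347 bp from 22499272 to 22506618. The series list covered 33.5%, 31.8% and 1.77% of these. On 3L the longest were 13426 bp from 23818756 to 23832181, 6337 bp from 24006501 to 24012837 and 6190 bp from 24265705 to 24271894, of which the series list covered 9.09%, 0.57% and 9.68%. In steps of 25 kb the least covered part of the 3L block, 700 to 725 kb from its proximal end, had 44.9% and 46.3%, and holds the longest of these stretches. The block of 3L reached the end of the arm sequence, where the last 25 kb were covered over 100% in both replicates. Lists of clusters cannot tell sequence without HP1a from sequence to which reads could not be assigned.

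Distal of the edge, cover on 2L came in scattered groups of unequal size, and on 3L there was little. Clusters numbered 25 in replicate 1 and 37 in replicate 2 on 2L, with median widths of 2542 and 2182 bp, and 7 and 6 on 3L, with 1638 and 1914 bp. The distal side was covered over 9.01% ± 1.53 on 2L and 2.86% ± 0.18 on 3L (SD, n = 2). It was higher on 2L by 4.94 and 7.36 percentage points, while the replicates differed by 2.17 points on 2L and 0.26 on 3L. The median value of called windows was 1.09 and 1.04 on 2L, over 92 and 116 windows, and 0.64 and 0.55 on 3L, over 11 and 12. The series list gave more cover at lower values on the same sides, 15.3% with a median of 0.81 on 2L and 6.32% with a median of 0.31 on 3L. The arms farther out, beyond the 2 Mb, were covered over 2.34% ± 0.06 on 2L and 1.66% ± 0.06 on 3L. The distal side of 2L thus exceeded the rest of its arm by 6.67 points on average, more than the replicates differed, and that of 3L by 1.19 points.

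Joined where less than 20 kb apart, a distance set after the data were seen, the distal cover of 2L formed 13 groups, 9 of them in both replicates. The largest spanned 141 kb from 21542728 to 21683908, 485 kb outside the edge, and held 49.6% and 41.8% of the distal cover. It had 12 clusters in replicate 1 and 14 in replicate 2, with values up to 1.85 and 2.01. The clusters behind its longest jointly covered stretches, 7618 bp from 21544013 to 21551630 and 6997 bp from 21553620 to 21560616, had 1.85 and 2.01 and 1.74 and 1.79 in replicates 1 and 2. The 25 kb between 1450 and 1475 kb from the proximal end, which hold them, were covered over 64.4% and 63.4%. On its distal side 127147 bp from 21415581 to 21542727 were uncovered in both replicates and covered over 1.39% in the series list. This stretch was named after its values were seen. On 3L there were 3 groups. The longest jointly covered stretch spanned 22754478 to 22757589, with 1.12 and 1.23. Next came 1641 bp from 22827995 to 22829635, with 0.48 and 0.22, and 1634 bp from 22713680 to 22715313, with 0.74 and 0.65. Outside them 166599 bp from 22543558 to 22710156 were uncovered in both replicates, a stretch also named after its values were seen.

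Assembled heterochromatin of the same arms is held in the separate sequences 2LHet and 3LHet. The block of 2L was covered over 87.5% ± 1.2 and 2LHet over 66.0% ± 3.2, and the block of 3L over 88.2% ± 1.3 and 3LHet over 82.5% ± 2.3 (SD, n = 2). Both blocks were more fully covered than the assembled heterochromatin, by more than the replicates differed. Their edges were fitted to this same cover, while 2LHet and 3LHet were taken whole, which favours higher cover in the blocks. The difference in cover is therefore given as a description. Values were slightly lower in the blocks, with differences (block minus assembled heterochromatin) of -0.06 and -0.13 on 2L and -0.07 and -0.14 on 3L. The median value of called windows was 2.19 and 2.18 in the block of 2L against 2.25 and 2.31 in 2LHet, and 2.15 and 2.16 in the block of 3L against 2.22 and 2.30 in 3LHet. In 2LHet and in 3LHet the replicates differed by about as much as block and assembled heterochromatin did in replicate 1. How much of each sequence could take up reads is unknown, so the difference in cover need not be one of HP1a.

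The replicates shared more of their covered bases inside the blocks than outside, while boundaries and values were not all closer there. On 2L 805 windows were called in both replicates (40.25% of the zone, against 5.25% of the whole arm), 21 in replicate 1 alone and 63 in replicate 2 alone. On 3L 1354 were called in both (67.7%, against 6.7%), 14 in replicate 1 alone and 42 in replicate 2 alone. The share of bases covered in either replicate that both covered, the Jaccard index, was 0.953 in the block of 2L and 0.965 in that of 3L, against 0.616 and 0.332 distal of the edges. This index is higher where more is covered, even for unrelated lists, and far more was covered inside the blocks. Its levels therefore do not tell whether the replicates reproduce better inside than outside. The longest stretches covered in 1 replicate alone were short. They were 3006 bp in replicate 1 (21643162 to 21646167) and the 3611 bp given above in replicate 2 on 2L, and 1773 bp (22969189 to 22970961) and 2926 bp (23003719 to 23006644) on 3L. Of the 88 boundaries of replicate 1 clusters in the block of 2L, 52 (59.1%) lay within 500 bp of the nearest boundary of the same kind in replicate 2. In the block of 3L 99 of 156 (63.5%) did. The median distance was 290.5 bp and 229 bp. Distal of the edge of 2L 36 of 50 (72%) did, with a median of 185.5 bp. Taken from replicate 2, which had more distal clusters, 52 of 78 (66.7%) did in the block of 2L and 36 of 74 (48.6%) on its distal side. Distal of the edge of 3L it was 6 of 14 (42.9%) of replicate 1 boundaries.

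**Figure D4:**
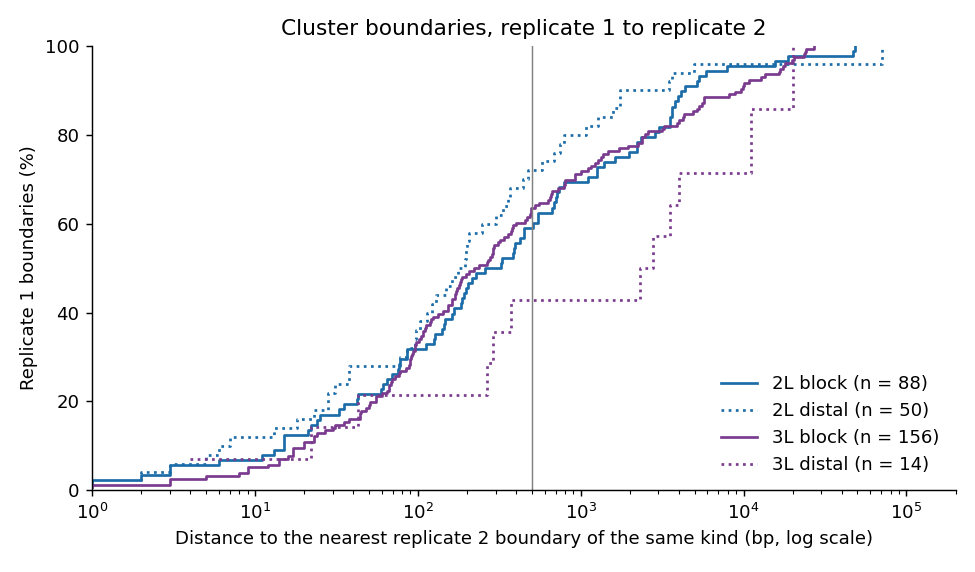
Share of replicate 1 cluster boundaries (%) that lie within a given distance of the nearest replicate 2 boundary of the same kind, start or end, on a log scale in bp. Solid lines are the blocks and dotted lines the distal sides, for 2L in blue and 3L in purple, and the grey line marks 500 bp. In the blocks 59.1% and 63.5% lie within it, on the distal side of 2L 72%, and the curve of 3L distal rests on 14 boundaries.

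Where both replicates called a window, their values were close. The median of replicate 1 minus replicate 2 was -0.04 on 2L and -0.03 on 3L, and the median absolute difference 0.06 and 0.07 on the log2 scale. On 2L it was 0.064 in the block and 0.057 distal of the edge. In 1 window in 10 the difference was at least 0.27 on 2L and 0.39 on 3L. The Spearman correlation across windows was 0.875 on 2L (805 windows) and 0.834 on 3L (1354 windows), as a description, since those windows share only 70 and 86 pairs of cluster values. On 2L it was 0.843 in the block (725 windows) and 0.967 distal of the edge (80 windows, 24 pairs of values). Values that another cluster of the same list held exactly were rare by length. They made up 3.92% and 1.47% of the bases under block clusters on 2L and 1.27% and 1.77% on 3L.

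**Figure D5:**
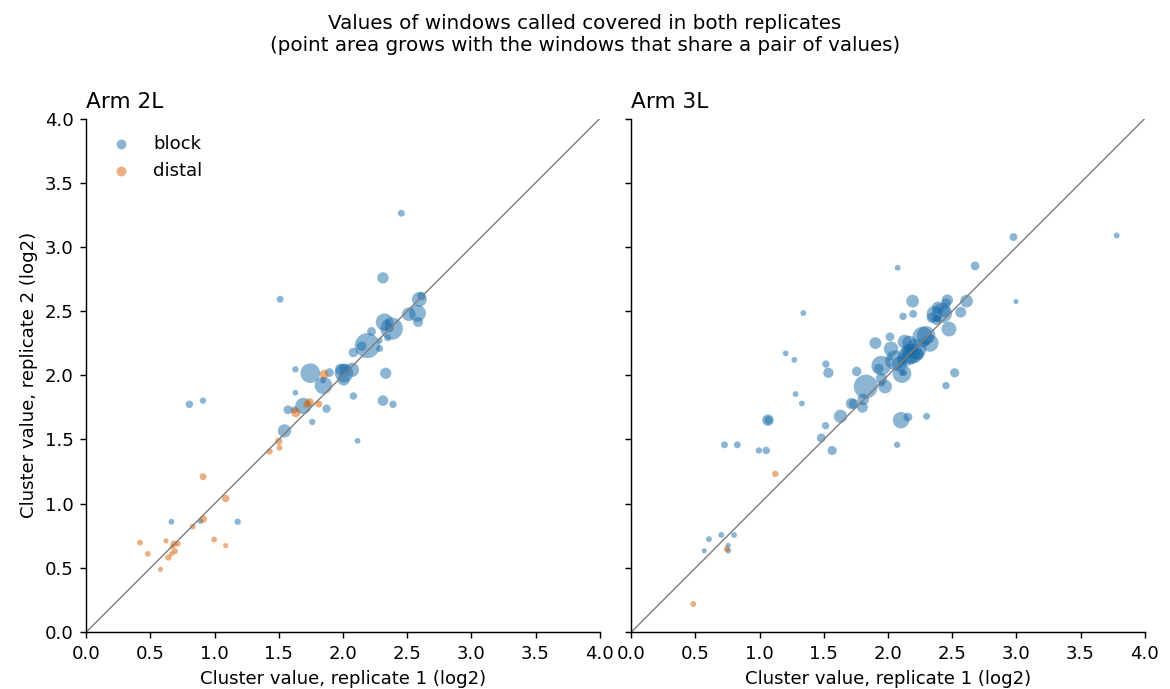
Cluster value (log2 enrichment) in replicate 1 and replicate 2 of windows called covered in both, for 2L (left) and 3L (right), with blue points for the block and orange points for the distal side. The area of a point grows with the number of windows that share the pair of values, and the line marks equal values. Most points lie near the line, and distal windows reach up to 1.85 and 2.01 on 2L and 1.12 and 1.23 on 3L.

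The series list, whose making is not described in the sources used here, put the edge in the same window on 2L and 2 kb farther out on 3L, 1553 kb from the proximal end. It covered 48.1% of the zone on 2L and 72.7% on 3L, against 42.1% and 69.0% for the mean of the replicates. Of its windows in the zone 971 were called on 2L and 1454 on 3L, while 7.31% of all windows of 2L, 8.61% of those of 3L and 17.8% over all sequences but Uextra were called. Of the bases it alone covered, 29.3 kb lay in the block and 50.3 kb distal of it on 2L, and 33.8 kb and 9.40 kb on 3L. Next to the edge of 2L it called more of the distal side, 31.2% of the first 25 kb against 0.70% and 8.67% in replicates 1 and 2. The gap between the block and the next cluster outward was 5035 bp in it. Genes and sequences under these windows are not given, because neither the gene table nor a genome used here is on release 5.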

How the data were processed

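Bowtie 0.12.7 aligned the reads, per the submitters' processing notes. Each input served as background for the ChIP library of the same number, per the labels. No source used here names the cluster caller or its threshold, or says how the series list was made. Coordinates are on FlyBase release 5, per the file headers, where sequence lengths were also taken. The deposited value of a cluster is read as log2 enrichment. No header names its unit. Of the values held by at least 3 clusters of a list, 105 of 110 in replicate 1, 108 of 113 in replicate 2 and 79 of 89 in the series list differ from the commonest one by the log2 of a ratio of whole numbers, with a denominator up to 40 and a tolerance of 1e-09.

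Overlapping clusters were merged, bases were counted in windows of 1 kb, and each window took the value of the cluster with most overlap. A window with at least 500 covered bases was called. Windows outside the zone were counted from the first base of a sequence, without a part window at its end. Edges are least-squares fits of 1 or 2 steps with segments of at least 20 windows, and the code was tested on simulated lists. Read numbers are unknown, so precision was judged from the 2 replicates, whose spread may be technical. The p-value of a cluster is not in the files, and no test was made.

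Regions were named by rule: the 3 widest clusters and the highest and lowest value of each replicate, the 3 longest stretches uncovered in both replicates in a block and covered in both distal of it, the longest stretch in 1 replicate alone, and others where said. The windows and rules were chosen with earlier results of these data known. The software was Python 3.11.15 with pandas 2.3.3, numpy 2.4.6, matplotlib 3.10.9 and scipy 1.17.1.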

Additional observations from a re-analysis of the deposited data

How the results depend on the processing

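Of 62 alternative values other than those that leave out a replicate, 39 could be held against a spread or, for counts, a limit of 1.5 times, and 20 of these stayed within it. The others were 8 Jaccard indices, which have no SD, and 15 values of the edges and of the middle segment of 2L, where the replicates gave the same value and any change counts as a move, even 820 against 819 kb. Leaving out a replicate moves a mean of 2 by less than their SD, so that check is uninformative. Every count of called windows stayed within 1.5 times under each alternative run, and these counts make up much of the 20. Their limit is wide, so the tally overstates how stable the results are. With only clusters at or above the median value, 628 windows of 2L against 847 counted as unchanged. Cover of 31.3% against 42.1% in the same setting counted as moved. A stricter setting kept only the clusters whose value reached the median of their list. Cover was then 31.3% on 2L and 59.5% on 3L, the edge lay 739.5 and 1492.5 kb from the proximal end, the middle segment was 406.5 and 1270 kb long, the median value 2.21 and 2.19 and the Jaccard index 0.836 and 0.898, for 2L and 3L in each pair. The edge of 2L then differed between the replicates, with 806 and 673 kb. Dropping clusters with a value under 1, chosen after seeing the data, moved the edge of 3L to 1536.5 kb and left that of 2L in place. Joining clusters within 1 kb gave medians of 2.03 and 2.19 and a Jaccard index of 0.907 and 0.961. Leaving out clusters with repeated values, also chosen after seeing the data, gave 68.0% on 3L. Within the proximal 1 Mb cover was 76.7% and 88.1% and the Jaccard index 0.936 and 0.970, and within 3 Mb 31.3% and 46.5%, and 0.875 and 0.951. The series list gave cover of 48.1% and 72.7%, medians of 1.98 and 2.13, an edge at 1553 kb on 3L and middle segments of 86 and 281 kb. Windows of 5 kb gave edges at 845 and 1550 kb and middle segments of 820 and 740 kb, the last a mean of 20 and 1460 kb. Limiting the fit to 300 kb around the edge gave middle segments of 84 and 123.5 kb. The length of the middle segment thus depends on the setting on both arms, and the cause was not tested.

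No paired analysis was possible because the inputs have no file here, so the groups cannot be compared by replicate number. Read depth is unknown, and what it limits could not be judged.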
